A study of Homo sapiens and Mus musculus with 36 samples.

Results

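The genes described here are 42 genes of DNA replication and mitosis, followed through RNA sequencing of cancer cell lines in which the histone methyltransferase DOT1L was targeted by CRISPR guides or by an inhibitor. Members were found by symbol in the human tables and by the same symbol in mouse spelling in the mouse tables, from a list drawn up with earlier results of these data known. All 42 were found among the 26457 genes of the human guide libraries, the 15899 genes of the inhibitor libraries and the 22673 genes of the mouse libraries, and all 42 passed the filter on low counts in every comparison. By role they were 10 genes of origin licensing and the replicative helicase, 4 genes of the replication fork and of nucleotide supply, 7 regulators of the passage from G1 into S phase, and 21 mitotic genes.

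The 36 libraries came from 4 established lines. HuH-7, a human hepatocellular carcinoma line, carried the control guide sgNeg2 (genotype WT) or 1 of 2 DOT1L guides, sg1 or sg2 (genotype DOT1L_KO), each without and with interferon (IFN), with 2 libraries per group. HuH-7 cells of genotype WT, with no guide named, were also given EPZ-5676, an inhibitor of the catalytic activity of DOT1L, for 7 days, or DMSO, with 3 libraries per group. The mouse lines Hepa1-6 and Hep53.4, labelled hepatocellular carcinoma, and LLC, labelled lung carcinoma, each carried sgNeg2 (WT) or a Dot1l guide, sg1 or sg2 (Dot1l_KO), with 2 libraries per group. The labels give no type, dose or duration of IFN, no dose of EPZ-5676, and do not say whether edited cells were clones or pools. Separate cultures are nowhere stated for the replicates, and each p-value therefore rests on library-to-library spread, which may be technical. In the knockout tests that spread also holds the difference between the 2 guides, whose libraries were pooled as 1 group. Knockout here means both guides together, 4 libraries against the 2 of sgNeg2 in the same line.

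Cells copy their genome in S phase and divide it in M phase. Before S phase the loading factors CDC6 and CDT1 place the MCM2 to MCM7 ring on origins. The GINS complex then helps switch the ring on as the moving helicase. The clamp PCNA holds polymerases on the template, while RRM1, RRM2 and TYMS make deoxynucleotides. E2F factors, cyclins D and E and CDK2 drive this programme, and many of its promoters carry E2F sites. Later, cyclins A and B with CDK1, the kinases PLK1 and Aurora A and B, and the spindle checkpoint run mitosis, and many of those promoters carry a CHR element bound by the MuvB complex, often beside CCAAT boxes bound by NF-Y. Both sets are low in resting cells, and MKI67 is the standard marker of cycling cells.

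This difference in promoter letters could be seen in the human genes. Of the 42 members, 33 were matched to a RefSeq promoter (GRCh38.p14, 250 bases before to 50 after the start). The others, MCM4, MCM5, CCNE2, CCND1, CDK2, AURKA, TTK, TPX2 and BIRC5, had no entry. On either strand, the E2F letters TTTCCCGC, TTTCGCGC, TTTGCCGC or TTTGGCGC stood in 8 of 12 promoters of replication members (66.7%), 3 of 4 of G1 to S regulators and 1 of 17 of mitotic members (5.88%), against 3.31% of all 35116 promoters. The CHR letters TTTGAA or TTCGAA stood in 12 of 17 mitotic promoters (70.6%), 2 of 12 replication promoters and 16.4% of all promoters. CCAAT was common in both classes, in 15 of 17 mitotic and 9 of 12 replication promoters, against 34.6% of all promoters. CHR letters and CCAAT together stood in 11 of 17 mitotic promoters (64.7%) and in 6.38% of all promoters. A match describes letters and is not a measured binding site.

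Promoters are shown for 3 of the replication genes that differed between the mouse lines. Those of 4 mitotic genes are shown from the 5 with the largest rise in Hep53.4. The selection favours the letters: CCNA2, the mitotic gene left out of the 5, had no CHR match. PCNA, RRM1 and MCM7 also differed between lines, had no E2F match and are not shown. MCM6, which differed and had E2F matches, is not shown either. Each printed window is the gene's own strand from 130 bases before the annotated start to 20 after it, 150 bases. The E2F, CHR and CCAAT letters (or CCAAT read on the other strand, ATTGG) are in capitals. MCM3 lies at chr6:52284723-52284872 on the minus strand. The plus-strand windows are MCM2 at chr3:127598281-127598430, CDC6 at chr17:40287749-40287898, CDC20 at chr1:43358851-43359000, PLK1 at chr16:23678759-23678908, CCNB2 at chr15:59105016-59105165 and KIF20A at chr5:138178982-138179131.
MCM3: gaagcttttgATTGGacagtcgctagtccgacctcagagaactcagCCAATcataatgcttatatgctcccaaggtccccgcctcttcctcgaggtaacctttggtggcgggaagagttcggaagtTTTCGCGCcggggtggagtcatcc
MCM2: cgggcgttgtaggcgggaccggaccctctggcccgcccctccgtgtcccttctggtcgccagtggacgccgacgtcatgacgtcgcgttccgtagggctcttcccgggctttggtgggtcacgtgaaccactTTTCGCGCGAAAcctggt
CDC6: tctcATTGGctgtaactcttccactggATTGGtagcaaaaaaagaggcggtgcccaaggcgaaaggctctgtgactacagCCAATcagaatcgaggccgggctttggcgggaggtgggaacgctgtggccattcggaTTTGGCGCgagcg
CDC20: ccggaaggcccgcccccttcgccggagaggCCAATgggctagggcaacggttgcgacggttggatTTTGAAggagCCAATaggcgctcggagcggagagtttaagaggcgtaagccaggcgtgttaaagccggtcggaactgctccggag
PLK1: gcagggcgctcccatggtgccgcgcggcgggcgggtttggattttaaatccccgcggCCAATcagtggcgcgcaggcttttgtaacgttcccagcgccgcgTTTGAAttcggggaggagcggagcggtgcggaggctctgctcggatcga
CCNB2: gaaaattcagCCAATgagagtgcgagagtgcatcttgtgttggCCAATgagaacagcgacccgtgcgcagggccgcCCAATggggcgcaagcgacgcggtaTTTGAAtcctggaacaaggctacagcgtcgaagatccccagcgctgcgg
KIF20A: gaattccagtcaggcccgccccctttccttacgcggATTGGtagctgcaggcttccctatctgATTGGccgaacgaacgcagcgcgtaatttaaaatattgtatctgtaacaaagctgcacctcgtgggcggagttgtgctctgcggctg
In MCM3 the E2F letters began 4 bases before the start and in CDC6 they began 8 bases after it. MCM2 carried overlapping matches on both strands. CDC20 had TTTGAA 65 bases before the start with a CCAAT on either side of it. In PLK1 and CCNB2 TTTGAA lay 29 bases before the start, downstream of 1 and 3 CCAAT boxes. KIF20A had a pair of ATTGG matches and none of the CHR letters in the printed window, from which nothing follows about the factor.

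The HuH-7 libraries without IFN held 19580588 to 22649969 counts, those with IFN 47594968 to 61227426, the inhibitor libraries 48912627 to 58628528 and the mouse libraries 42637155 to 59686358. DOT1L, in CPM (counts scaled to a common library total within a line or experiment), was 72.8 to 75.2 with sgNeg2 and 32.0 to 40.2 with the guides in HuH-7 without IFN, and 109 to 109.5 against 42.6 to 67.1 with IFN. In the mouse lines it was 41.5 to 45.8 against 14.3 to 16.7 in Hepa1-6, 21.6 to 22.3 against 10.8 to 15.3 in Hep53.4 and 62.0 to 68.9 against 30.0 to 33.7 in LLC. DOT1L was 51.9 to 54.5 CPM with DMSO and 47.5 to 51.2 with EPZ-5676, which acts on the enzyme. Hepatocyte markers of at least 1 CPM in the control libraries numbered 11 of 11 in HuH-7, 6 of 9 listed in Hepa1-6, 4 of 9 in Hep53.4 and 0 of 9 in LLC, where 0 of 6 lung epithelial markers reached that level either. Of 6 leukocyte markers, 1 reached 1 CPM with sgNeg2 in HuH-7, 3 in Hepa1-6, 1 in Hep53.4 and 1 in LLC. CD14 was among them in every line, at 48.0 CPM in Hep53.4, 22.6 in Hepa1-6 and 10.7 in LLC. PTPRC was at 0 in the sgNeg2 libraries of every line. Replicate pairs differed most for sg1 in Hepa1-6 (chi-square per gene 62.6) and sg2 in HuH-7 without IFN (24.7), against 2.81 to 8.64 in every other pair, so results from those groups are also given without 1 library.

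In Hep53.4 the knockout split the members by role: replication genes were lower and mitotic genes higher. Of the 42 members 13 rose and 12 fell by edgeR's quasi-likelihood test (adjusted p under 0.05 over all genes), 25 in all, where 39.2% of 12227 genes were called, 19.4% higher and 19.7% lower. Among the 14 replication members 0 rose and 9 fell, with a median log2 change of -0.18. Among the 21 mitotic members 13 rose and 1 fell, with a median of 0.17, against -0.0027 over all genes. In bulk RNA, fewer cells in a phase and less RNA per cell cannot be told apart.

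The helicase ring carried much of the lower side, with 5 of its 6 subunits called. Mcm4 read 44.2 and 45.2 CPM with sgNeg2, 30.4 and 33.1 with sg1 and 35.0 and 34.2 with sg2 (log2 change -0.43, SE 0.06, adjusted p = 2.69e-07). Mcm6 read 229 and 224 CPM with sgNeg2, 171 and 179 with sg1 and 183 and 187 with sg2 (log2 change -0.33, SE 0.03, adjusted p = 1.29e-09). In both genes all 4 knockout libraries lay under both controls. Mcm3 fell by 0.23, Mcm2 by 0.18 and Mcm7 by 0.13 on the log2 scale, while Mcm5, at -0.08, did not pass (adjusted p = 0.111). The loader Cdc6 read 6.07 and 6.81 CPM with sgNeg2, 4.45 and 5.61 with sg1 and 4.19 and 4.69 with sg2 (log2 change -0.44, SE 0.13, adjusted p = 0.00774). The GINS subunit Gins1 read 5.79 and 5.13 CPM with sgNeg2, 4.45 and 3.59 with sg1 and 3.95 and 5.16 with sg2 (log2 change -0.35, SE 0.14, adjusted p = 0.0493), its control and knockout libraries overlapping. Cdt1, which loads the ring together with Cdc6, changed by 0.07 (adjusted p = 0.319) and Gins2 by -0.14 (0.294). At the fork, Pcna, the sliding clamp, read 64.2 and 70.2 CPM with sgNeg2, 56.2 and 58.0 with sg1 and 60.4 and 62.1 with sg2 (log2 change -0.18, SE 0.05, adjusted p = 0.0022). Rrm1, the large subunit of ribonucleotide reductase, fell by 0.18, whereas its partner Rrm2, at 0.10, and the thymidylate synthase Tyms, at -0.15, did not pass.

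Among the 7 regulators of S-phase entry, 2 fell and 0 rose in Hep53.4. E2f1, an activating E2F factor, read 21.7 and 21.7 CPM with sgNeg2, 17.4 and 18.3 with sg1 and 16.7 and 16.4 with sg2 (log2 change -0.33, SE 0.07, adjusted p = 0.000402). Cdk2, the kinase of cyclin E, read 15.1 and 17.7 CPM with sgNeg2, 13.0 and 14.01 with sg1 and 13.5 and 13.5 with sg2 (log2 change -0.28, SE 0.08, adjusted p = 0.00675). Both control libraries stood above all knockout libraries in these genes. Cyclin D1 (Ccnd1) and the cyclins Ccne1 and Ccne2 gave 0.00, -0.10 and 0.13, none past the test, and the E2F factor E2f2 and the phosphatase Cdc25a gave 0.09 and 0.11.

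The mitotic members rose through cyclins, kinases, checkpoint and motor proteins. Cdc20, which activates the anaphase-promoting complex, read 62.2 and 63.6 CPM with sgNeg2, 90.6 and 92.5 with sg1 and 82.2 and 89.0 with sg2 (log2 change 0.50, SE 0.04, adjusted p = 1.45e-10). Plk1, the Polo kinase of mitotic entry and exit, read 54.1 and 55.3 CPM with sgNeg2, 75.4 and 74.5 with sg1 and 68.6 and 70.8 with sg2 (log2 change 0.41, SE 0.04, adjusted p = 1.46e-08). Kif20a, a kinesin of cytokinesis, read 52.3 and 52.5 CPM with sgNeg2, 68.6 and 71.5 with sg1 and 70.3 and 70.3 with sg2 (log2 change 0.42, SE 0.04, adjusted p = 2.08e-09). In each of these genes the lowest knockout library was above the highest control. Cyclin B2 (Ccnb2) read 35.5 and 35.4 CPM with sgNeg2, 48.9 and 48.8 with sg1 and 45.9 and 46.7 with sg2 (log2 change 0.43, SE 0.05, adjusted p = 5.30e-08). Cyclin A2 (Ccna2) read 51.4 and 46.8 CPM with sgNeg2, 65.9 and 68.9 with sg1 and 62.9 and 65.5 with sg2 (log2 change 0.43, SE 0.05, adjusted p = 1.93e-08). Aurora kinase A (Aurka) read 37.6 and 36.3 CPM with sgNeg2, 46.8 and 46.4 with sg1 and 45.4 and 43.4 with sg2 (log2 change 0.30, SE 0.05, adjusted p = 1.80e-05). Again no knockout library of these genes reached down to a control. Smaller rises were called for the checkpoint kinase Bub1b (0.25), the survivin gene Birc5 (0.23), the phosphatase Cdc25c (0.23), cyclin B1 (Ccnb1, 0.19), the kinetochore protein Cenpf (0.17), the checkpoint protein Mad2l1 (0.16) and the topoisomerase Top2a (0.14). Kif11, the motor that separates spindle poles, was the 1 mitotic member that fell, at 29.5 and 30.5 CPM with sgNeg2, 26.4 and 25.0 with sg1 and 26.0 and 27.4 with sg2 (log2 change -0.19, SE 0.06, adjusted p = 0.0111). Mki67 changed by -0.03 (adjusted p = 0.578), and Cdk1 by 0.07 (0.173).

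Wider lists of replication and mitosis genes were counted in the same test, where 19.4% of all genes rose and 19.7% fell. Of 47 further replication genes 0 rose and 29 fell in Hep53.4, among them Pole2, a subunit of polymerase epsilon (-0.68), the origin protein Orc1 (-0.66) and the checkpoint kinase Chek1 (-0.59). Of 63 further mitotic genes 22 rose and 5 fell, and the rest did not pass. Troap (0.54), Ccnf (0.45) and Ube2c, an enzyme of the anaphase-promoting complex pathway (0.42), led the rise, and Mybl2, which works with MuvB at mitotic promoters, fell most (-0.52). By the letters of the human promoters, 12 members with an E2F match counted 0 higher and 6 lower, and 14 with a CHR match 8 higher and 3 lower. Leaving out sgNeg2 replicate 2 cut the members called lower from 12 to 6 and the replication members called lower from 9 to 5, and ended the calls of Cdc6, Pcna, Cdk2 and Kif11. The call of Gins1 held in 1 of 6 fits with a library left out. With any 1 library left out, 5 to 9 replication members fell and 11 to 15 mitotic members rose. The share of all genes called in these fits is not given here, so a drop in calls is no result about the members.

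In LLC both classes rose together. There 30 members rose and 2 fell, where 33.5% of 12225 genes were called, 16% higher and 17.5% lower. The median log2 change of the members was 0.18, against 0.01 over all genes. Replication members counted 10 higher and 1 lower, mitotic members 18 higher and 0 lower. The 42 genes held 0.600% to 0.607% of raw counts with sgNeg2 and 0.683% to 0.724% with the guides, with no overlap. These shares are taken before the scaling behind CPM. Its factors were 0.953 and 0.961 with sgNeg2 and 1.01 to 1.03 with the guides, so the gap is not the rise in CPM.

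Of the ring subunits 5 of 6 rose in LLC. Mcm4 read 119 and 116 CPM with sgNeg2, 135 and 141 with sg1 and 134 and 134 with sg2 (log2 change 0.21, SE 0.04, adjusted p = 0.000195). Mcm2 read 173 and 175 CPM with sgNeg2, 207 and 197 with sg1 and 192 and 195 with sg2 (log2 change 0.19, SE 0.04, adjusted p = 0.000601). All 4 knockout libraries lay above both controls, the reverse of the order in Hep53.4. Mcm5 (0.18), Mcm7 (0.16), Mcm3 (0.13) and Cdc6 (0.19) also rose, and Mcm6, at 567 and 551 CPM with sgNeg2, 559 and 566 with sg1 and 551 and 550.0 with sg2, did not pass (adjusted p = 0.944). Cdt1 moved against its partners, at 189 and 186 CPM with sgNeg2, 141 and 134 with sg1 and 152 and 152 with sg2 (log2 change -0.37, SE 0.04, adjusted p = 2.79e-06), with controls above every knockout library. All 4 fork and nucleotide genes rose. Pcna read 136 and 136 CPM with sgNeg2, 163 and 156 with sg1 and 157 and 156 with sg2 (log2 change 0.22, SE 0.04, adjusted p = 0.000104), with replicate 1 of sg1 the highest library. Tyms rose by 0.27, Rrm2 by 0.18 and Rrm1 by 0.18.

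Cyclin E genes rose in LLC while cyclin D1 fell. Ccne2 read 3.25 and 3.01 CPM with sgNeg2, 5.53 and 4.55 with sg1 and 4.77 and 5.15 with sg2 (log2 change 0.68, SE 0.14, adjusted p = 0.000889), a low level at which no control reached a knockout library. Ccne1 rose by 0.24, and Ccnd1 read 468 and 457 CPM with sgNeg2, 397 and 395 with sg1 and 425 and 421 with sg2 (log2 change -0.17, SE 0.04, adjusted p = 0.00164). The other four regulators, E2f1 (-0.11), E2f2 (-0.16), Cdk2 (0.12) and Cdc25a (0.02), did not pass.

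The 8 kinase and checkpoint genes all rose in LLC. Cdc20 read 163 and 160.1 CPM with sgNeg2, 204 and 205 with sg1 and 202 and 206 with sg2 (log2 change 0.34, SE 0.03, adjusted p = 3.17e-07). Ttk, the kinase Mps1 of the checkpoint, read 14.98 and 13.0 CPM with sgNeg2, 18.3 and 18.1 with sg1 and 17.4 and 18.1 with sg2 (log2 change 0.36, SE 0.08, adjusted p = 0.00128). Cenpf, a kinetochore protein of late G2, read 43.1 and 47.8 CPM with sgNeg2, 65.1 and 61.0 with sg1 and 57.8 and 55.5 with sg2 (log2 change 0.40, SE 0.06, adjusted p = 4.19e-05). The groups did not overlap in any of these genes. Cyclin B1 (Ccnb1) read 173 and 173 CPM with sgNeg2, 214 and 221 with sg1 and 201 and 201 with sg2 (log2 change 0.28, SE 0.04, adjusted p = 2.74e-05). Tpx2, which activates Aurora A on the spindle, read 229 and 232 CPM with sgNeg2, 275 and 278 with sg1 and 257 and 266 with sg2 (log2 change 0.22, SE 0.04, adjusted p = 0.000103). Mki67 read 208 and 238 CPM with sgNeg2, 298 and 291 with sg1 and 249.5 and 259 with sg2 (log2 change 0.30, SE 0.08, adjusted p = 0.0241). These, too, separated fully by genotype. The remaining rises ran from 0.11 for Bub1b to 0.32 for the kinesin Cenpe. Ccnb2 (-0.04), Cdc25c (-0.03) and Birc5 (0.11) were the mitotic members not called.

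Further genes followed in LLC, with 34 of 63 mitotic genes higher and 3 lower, led by the kinesin Kif15 (0.50) and the condensin subunit Smc2 (0.44), and 19 of 47 replication genes higher and 2 lower, led by the polymerase subunit Pola1 (0.39). With any 1 library left out 7 to 10 replication members and 12 to 19 mitotic members rose, with Ttk lost without sgNeg2 replicate 2 and Mki67 lost without sgNeg2 replicate 1. Members with an E2F match counted 5 higher and 1 lower, and those with a CHR match 11 higher and 0 lower.

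**Figure D1:**
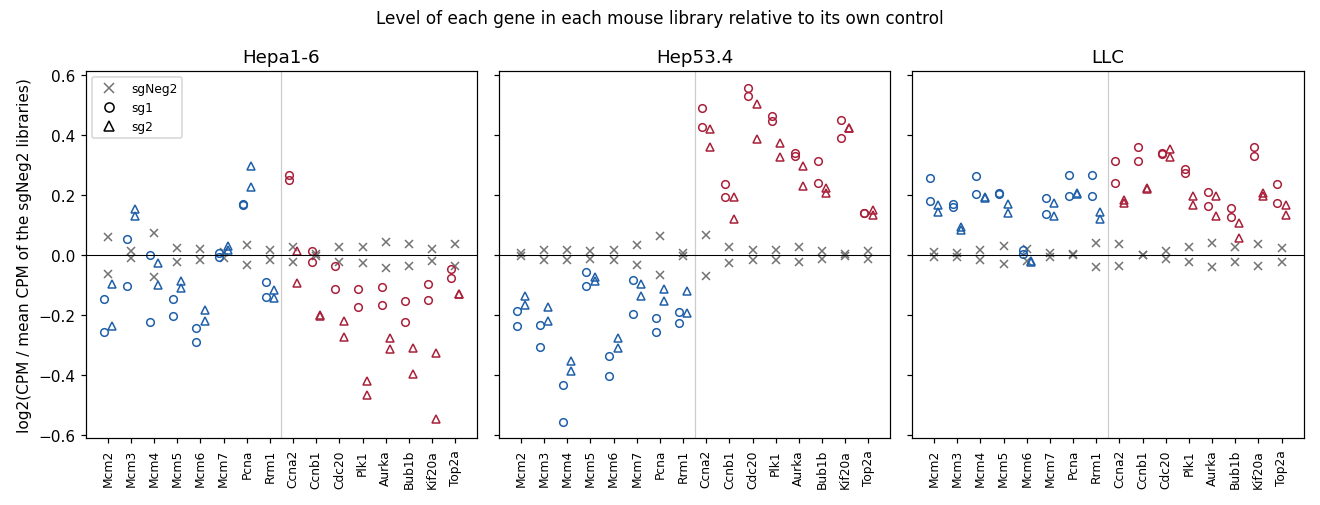
Level of 16 members in each mouse library as log2 of CPM over the mean of the sgNeg2 libraries of that line (crosses sgNeg2, circles sg1, triangles sg2). The 16 were picked for display, and the mitotic genes among them were all called higher in Hep53.4. Kif11, Mki67, Cdt1 and Rrm2, which went otherwise there, are not shown. In Hep53.4 the Mcm genes sit under the zero line and the plotted mitotic genes above it, and in LLC nearly all sit above it.

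The difference between Hep53.4 and LLC was tested in a joint fit of the 3 mouse lines. Of the 42 members 3 had a higher knockout effect in Hep53.4 and 17 a lower one, 29.2% of 14195 genes being called, 13.4% higher and 15.8% lower. The replication members carried it, with 11 of 14 lower and 1 higher, against 3 lower and 1 higher among the 21 mitotic members. All 6 ring subunits were lower, and this count of 6 held in all 12 fits with 1 library left out. The difference in log2 change (Hep53.4 minus LLC) was -0.67 (SE 0.08, adjusted p = 6.09e-08) for Mcm4, -0.65 (SE 0.11, adjusted p = 3.85e-05) for Cdc6 and -0.42 (SE 0.06, adjusted p = 4.34e-06) for Pcna. It was -0.39 for Mcm2, -0.39 for Rrm1 and -0.35 for Mcm6. Ccnb2 was higher in Hep53.4 by 0.45 (SE 0.06, adjusted p = 1.31e-06) and Cdt1 by 0.42. For Cdc20 the difference was 0.13 (adjusted p = 0.135) and for Plk1 0.15 (95% interval -0.05 to 0.35), neither past the test.

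**Figure D2:**
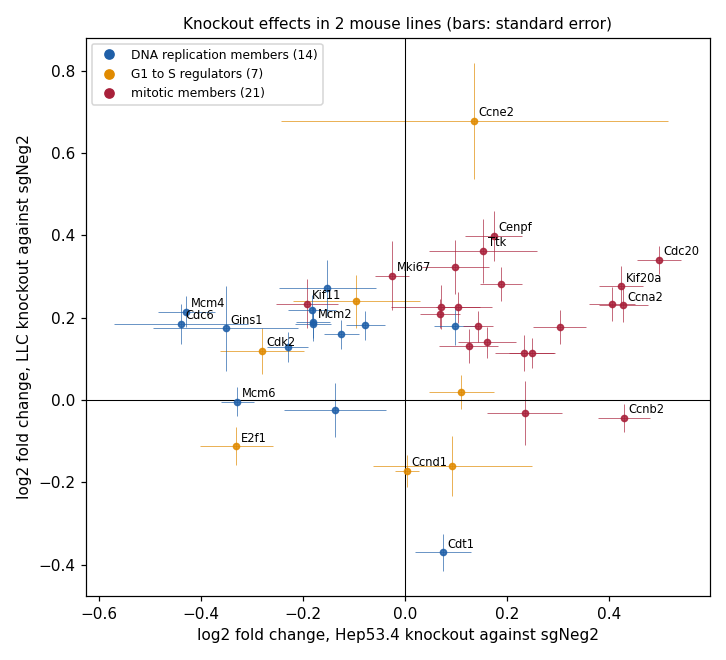
Log2 change with knockout in Hep53.4 (x axis) against LLC (y axis) for the 42 members, with SE bars, coloured by class. Most replication genes lie left of zero and above it, and most mitotic genes lie in the upper right.

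In Hepa1-6 the members shared no single direction. The test called 4 higher and 12 lower, where 32.8% of 12493 genes were called, 14.5% higher and 18.3% lower, and the median was -0.06 against 0.01 over all genes. Replication members counted 2 higher and 6 lower, mitotic members 2 higher and 5 lower. Cdc6 read 31.3 and 30.9 CPM with sgNeg2, 24.0 and 23.4 with sg1 and 22.8 and 23.1 with sg2 (log2 change -0.41, SE 0.07, adjusted p = 0.000111). Mcm6 read 169 and 165 CPM with sgNeg2, 137 and 141 with sg1 and 147 and 144 with sg2 (log2 change -0.23, SE 0.04, adjusted p = 4.33e-05). Mki67 read 152 and 159 CPM with sgNeg2, 126 and 129 with sg1 and 117 and 116 with sg2 (log2 change -0.35, SE 0.04, adjusted p = 2.20e-06). In all 3 genes each knockout library was under both controls. Mcm2 (-0.18), Mcm5 (-0.14), Cdt1 (-0.16), Rrm1 (-0.12) and E2f1 (-0.27) fell as well. Going the other way, Gins1 read 13.3 and 10.4 CPM with sgNeg2, 14.3 and 13.7 with sg1 and 15.9 and 17.0 with sg2 (log2 change 0.36, SE 0.11, adjusted p = 0.0162). Pcna read 88.4 and 84.5 CPM with sgNeg2, 96.9 and 97.2 with sg1 and 106 and 101 with sg2 (log2 change 0.22, SE 0.05, adjusted p = 0.000942), higher in every knockout library than in either control.

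Mitotic calls in Hepa1-6 were mixed even within the checkpoint. Bub1b, which encodes BubR1, read 108 and 102 CPM with sgNeg2, 94.2 and 89.9 with sg1 and 84.6 and 79.7 with sg2 (log2 change -0.27, SE 0.05, adjusted p = 0.000676). Its paralogue Bub1 read 33.2 and 30.2 CPM with sgNeg2, 37.5 and 37.9 with sg1 and 38.9 and 36.5 with sg2 (log2 change 0.25, SE 0.06, adjusted p = 0.00426). The groups were apart in both, in opposite directions. Aurka (-0.21), Cdc20 (-0.16) and Tpx2 (-0.16) fell and Birc5 (0.15) rose. Plk1 (-0.28, adjusted p = 0.0919) and Kif20a (-0.27, 0.184) were below their controls in all knockout libraries without passing. Further mitotic genes counted 4 higher and 18 lower of 63, with the kinetochore scaffold Casc5 at -0.59 and Aspm at -0.51, and further replication genes 6 higher and 5 lower of 47. Without sgNeg2 replicate 1, 4 members rose and 5 fell (replication 2 and mitotic 2 of them), and without sgNeg2 replicate 2, 2 rose and 9 fell, Gins1 and Bub1 being lost. Without sg1 replicate 1, 4 rose and 11 fell, and without sg1 replicate 2, 4 rose and 15 fell, 8 of them mitotic. These counts, too, lack the share of all genes in the same fit and are no result about the members.

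Against Hep53.4 the mitotic effect in Hepa1-6 was lower in 12 of 21 members and higher in 0, and the replication effect was higher in 5 of 14 and lower in 1. In all 6 members were higher and 13 lower, 24.7% of genes being called, 10.2% higher and 14.5% lower. The difference (Hepa1-6 minus Hep53.4) was -0.70 (SE 0.11, adjusted p = 0.000109) for Kif20a, -0.70 (SE 0.10, adjusted p = 1.10e-05) for Plk1 and -0.67 (SE 0.07, adjusted p = 5.93e-09) for Cdc20. Gins1 differed by 0.71 (SE 0.19, adjusted p = 0.00619) and Pcna by 0.39 (SE 0.07, adjusted p = 2.78e-05). Without Hepa1-6 sgNeg2 replicate 2 the replication members called higher numbered 3, and the difference for Gins1 was lost there and without Hep53.4 sgNeg2 replicate 1. Against LLC 0 members were higher and 20 lower, 24.6% of genes being called, 9.28% higher and 15.3% lower. Mki67 differed by -0.68 (SE 0.09, adjusted p = 1.17e-05), Cdc6 by -0.63 (SE 0.10, adjusted p = 5.53e-06) and Cdc20 by -0.53 (SE 0.07, adjusted p = 2.71e-07). Tpx2 (-0.42), Bub1b (-0.41), Mcm2 (-0.40) and Mcm5 (-0.35) were lower too. Each pair of these differences shares a line, so they are not independent of one another.

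In HuH-7 without IFN the share of members called was near that of all genes. The members called were G1 to S genes and the loader CDC6. The test called 4 higher and 1 lower, where 11.3% of 16448 genes were called, 6.95% higher and 4.38% lower, and the median was 0.02 against 0.0030 over all genes. CDC6 read 82.6 and 92.6 CPM with sgNeg2, 108 and 113 with sg1 and 112 and 122 with sg2 (log2 change 0.38, SE 0.07, adjusted p = 0.00421). Cyclin E1 (CCNE1) read 12.1 and 11.2 CPM with sgNeg2, 15.3 and 17.1 with sg1 and 15.9 and 17.1 with sg2 (log2 change 0.49, SE 0.11, adjusted p = 0.0102). Cyclin E2 (CCNE2) read 7.47 and 7.72 CPM with sgNeg2, 10.7 and 10.99 with sg1 and 11.7 and 14.2 with sg2 (log2 change 0.65, SE 0.19, adjusted p = 0.0395). Every knockout library was above both controls in all 3. CDC25A, the phosphatase that activates CDK2, read 79.3 and 80.5 CPM with sgNeg2, 93.4 and 90.3 with sg1 and 96.4 and 93.9 with sg2 (log2 change 0.23, SE 0.06, adjusted p = 0.0254). CDK2 itself read 104 and 93.2 CPM with sgNeg2, 78.9 and 82.5 with sg1 and 80.6 and 74.9 with sg2 (log2 change -0.31, SE 0.07, adjusted p = 0.0103), below the controls in all 4 knockout libraries.

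Of the ring subunits 0 were called in that setting, and of the 21 mitotic members 0. At an unadjusted p under 0.05, 5 members were higher and 7 lower, with 25.8% of genes at that level. CDT1 read 124 and 117 CPM with sgNeg2, 90.4 and 92.1 with sg1 and 86.3 and 53.3 with sg2 (log2 change -0.58, SE 0.20, adjusted p = 0.0794). MCM2 read 273 and 256 CPM with sgNeg2, 216 and 221 with sg1 and 229 and 168 with sg2 (log2 change -0.34, SE 0.13, adjusted p = 0.123). AURKB, the passenger complex kinase, read 129 and 125 CPM with sgNeg2, 109 and 106 with sg1 and 100.2 and 84.4 with sg2 (log2 change -0.35, SE 0.12, adjusted p = 0.0836). The groups did not overlap in these 3 genes, and sg2 replicate 2 was the lowest library in each. CENPE read 60.7 and 67.2 CPM with sgNeg2, 92.1 and 90.3 with sg1 and 77.4 and 103 with sg2 (log2 change 0.50, SE 0.16, adjusted p = 0.065), higher in all 4 knockout libraries. Without sgNeg2 replicate 1 no member was called, 0 of 42. For fits with a library left out the share of all genes is not given here, so such counts are no result about the members. Without sgNeg2 replicate 2, 1 rose and 1 fell, without sg1 replicate 1, 2 rose and 2 fell, and without sg1 replicate 2 or sg2 replicate 1, 2 rose and 1 fell. CCNE2 was called in 0 of the 6 fits with a library left out and CDC25A in 1. Without sg2 replicate 2, the library that stood apart, 3 rose and 2 fell, and with histone and small RNA genes removed the split was 2 higher and 3 lower. Of 47 further replication genes 6 rose and 0 fell, led by E2F7, a repressing E2F factor (0.71), and the fork protection genes TIPIN (0.58) and CLSPN (0.54). Of 65 further mitotic genes 0 rose and 3 fell: the kinesins KIFC1 (-1.91, at a mean of 4.52 CPM with sgNeg2), KIF22 (-0.41) and KIF4A (-0.29).

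With IFN the knockout in HuH-7 lowered MCM6, MCM4, MKI67 and CCNB2. Counted in either direction, this was a smaller share of the members than of all genes, and counted as lower calls alone a larger one. There 0 members rose and 4 fell, where 12.4% of genes were called, 7.11% higher and 5.27% lower. MCM6 read 405 and 409.8 CPM with sgNeg2, 346 and 345 with sg1 and 332 and 319 with sg2 (log2 change -0.28, SE 0.06, adjusted p = 0.0108). MCM4 read 335 and 332 CPM with sgNeg2, 284 and 282 with sg1 and 293 and 295 with sg2 (log2 change -0.21, SE 0.06, adjusted p = 0.0257). MKI67 read 739.9 and 741 CPM with sgNeg2, 628 and 624 with sg1 and 549 and 526 with sg2 (log2 change -0.35, SE 0.09, adjusted p = 0.0194). Cyclin B2 (CCNB2) read 125 and 119 CPM with sgNeg2, 102 and 109 with sg1 and 100.5 and 94.8 with sg2 (log2 change -0.26, SE 0.08, adjusted p = 0.0472). No knockout library reached a control in these 4 genes. Of all 42 members 37 had a negative log2 change, with a median of -0.14 against -0.06 over all genes, and 12 were lower and 1 higher at an unadjusted p under 0.05, a level that 24.8% of genes reached. Leaving out sgNeg2 replicate 1 or sgNeg2 replicate 2 left 0 members called, and CCNB2 held in 1 of the 6 fits with a library left out. How many of all genes those fits called is not given here. Further mitotic genes counted 0 higher and 7 lower of 65, led by CKS2 (-0.35), and further replication genes 1 higher, E2F7 (0.59), and 3 lower of 47, led by the chromatin assembly subunit CHAF1B (-0.35).

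With IFN the guides gave unlike levels for some members, a difference that was not tested. MCM2 read 661 and 642 CPM with sgNeg2, 441 and 482 with sg1 and 586 and 609.5 with sg2, so that sg1 lay further from the controls than sg2. CDK1, the mitotic cyclin-dependent kinase, read 143 and 145 CPM with sgNeg2, 136 and 134 with sg1 and 111 and 99.7 with sg2, with sg2 further away. For TOP2A, which decatenates chromosomes, the log2 change with sg1 alone was 0.17, although both guides together gave -0.04. Counted alone, sg1 called 5 members higher and 21 lower, with 2206 genes higher and 4259 lower among 16083 tested. Counted alone, sg2 called 0 members higher and 18 lower, with 1476 genes higher and 2633 lower among 16155 tested. DOT1L itself was 42.6 and 46.8 CPM with sg1 and 67.0 and 67.1 with sg2.

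Whether the knockout effect differed between the libraries without and with IFN was tested by the interaction of genotype and IFN. These libraries also differed in depth and in histone and small RNA share, so IFN and library kind cannot be told apart here. The test called 0 members higher and 0 lower, where 0.505% of 16448 genes were called (0.207% higher, 0.298% lower), with edgeR's smallest adjusted p among members at 0.102. At an unadjusted p under 0.05 it gave 0 higher and 9 lower, with 12.9% of genes at that level, and DESeq2 called 2. For CDC6 the difference in log2 change was -0.40 (95% interval -0.61 to -0.18) and for MKI67 -0.41 (-0.68 to -0.13). A miss of the threshold does not show that the effects were alike. Removing histone and small RNA genes shifted the median over all genes by 0.102 in this test.

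**Figure D3:**
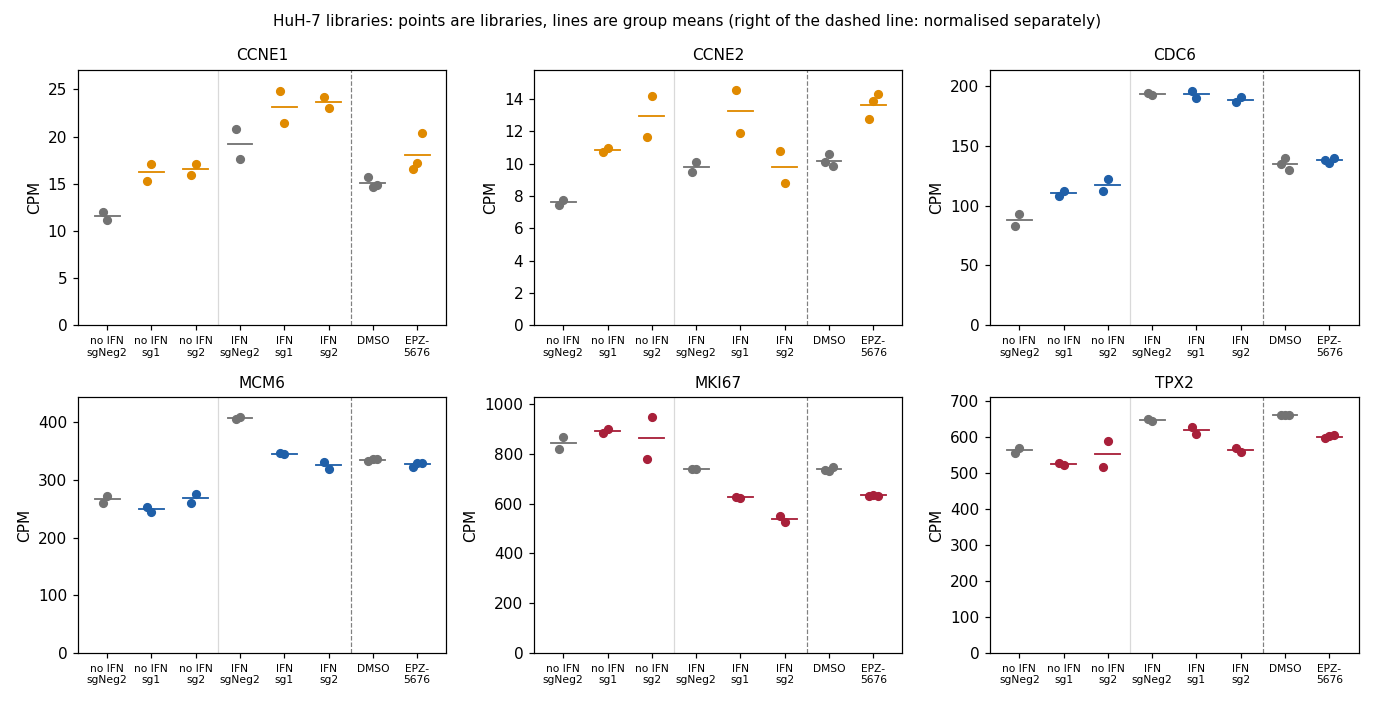
CPM of CCNE1, CCNE2, CDC6, MCM6, MKI67 and TPX2 in each HuH-7 library, with the inhibitor experiment, scaled separately, right of the dashed line. Cyclin E levels are higher in the knockout libraries without IFN and with EPZ-5676, and MKI67 is lower in the knockout libraries with IFN and with EPZ-5676.

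EPZ-5676 gave small changes with narrow errors. It raised 6 members and lowered 19, where 33.7% of 15023 genes were called, 15.1% higher and 18.6% lower, with a median of -0.05 against 0.01 over all genes. The lower side was mostly mitotic: 13 of 21 mitotic members fell and 1 rose, and 13 fell in each of the 6 fits with 1 library left out. MKI67 read 735, 732 and 746 CPM with DMSO and 632, 636 and 632 with EPZ-5676 (log2 change -0.22, SE 0.01, adjusted p = 4.60e-23). TPX2 read 663, 661 and 663 CPM with DMSO and 598, 602 and 607 with EPZ-5676 (log2 change -0.14, SE 0.01, adjusted p = 4.01e-13). AURKA read 232, 236 and 227 CPM with DMSO and 209, 201 and 205 with EPZ-5676 (log2 change -0.17, SE 0.02, adjusted p = 1.56e-09). All 3 inhibitor libraries lay under all 3 DMSO libraries in each gene. MAD2L1 (-0.13), KIF11 (-0.13), KIF20A (-0.12), PLK1 (-0.11), BUB1 (-0.11), AURKB (-0.10) and TOP2A (-0.07) fell by less. The kinesin CENPE rose, at 70.1, 61.0 and 66.2 CPM with DMSO and 73.8, 75.2 and 72.1 with EPZ-5676 (log2 change 0.17, SE 0.04, adjusted p = 0.000267). CDC20, cyclin B1 (CCNB1) and cyclin B2 gave 0.02, -0.01 and -0.04 without passing.

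Helicase subunits went both ways with the inhibitor. MCM2 read 354, 355 and 361 CPM with DMSO and 323, 322 and 321 with EPZ-5676 (log2 change -0.15, SE 0.02, adjusted p = 2.48e-10). MCM3 read 348, 355 and 346 CPM with DMSO and 379.6, 391 and 381 with EPZ-5676 (log2 change 0.14, SE 0.02, adjusted p = 1.24e-09). The groups were apart in both. MCM4 (-0.07), MCM7 (-0.06), GINS1 (-0.08) and RRM1 (-0.10) fell and RRM2 (0.11) rose, so that replication members counted 2 higher and 5 lower. Without DMSO replicate 3 the 5 became 3. Among S-phase regulators CCNE2 read 10.1, 10.6 and 9.88 CPM with DMSO and 12.8, 13.8 and 14.3 with EPZ-5676 (log2 change 0.42, SE 0.08, adjusted p = 2.74e-05) and CCNE1 read 15.7, 14.7 and 14.9 CPM with DMSO and 16.5, 17.2 and 20.4 with EPZ-5676 (log2 change 0.26, SE 0.07, adjusted p = 0.00366). E2F1 rose by 0.15 and CDK2 fell by 0.14. Both cyclin E genes, therefore, were higher in every inhibitor library than in any DMSO library, although CCNE1 was not called without EPZ-5676 replicate 3. Further mitotic genes counted 2 higher and 24 lower of 65, with the CDK-binding protein CKS2 at -0.38 and the chromokinesin KIF4A at -0.29. Further replication genes counted 11 higher and 11 lower of 47. Members with a CHR match in the promoter counted 0 higher and 9 lower, and those with an E2F match 2 higher and 3 lower.

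The control cells with and without IFN differed for most members, but these libraries also differed in kind. Histone genes held 0.827% to 1.00% of counts without IFN and 0.0329% to 0.0472% with it, small RNA genes 3.24% to 5.90% and 0.0102% to 0.0118%, and the depth differed as given above. IFN and the library kind cannot be told apart, and the values are a description. Of the 42 members 26 were higher and 5 lower with IFN in sgNeg2 cells, where 67.8% of genes were called, 33% higher and 34.7% lower. All 10 licensing and helicase genes were higher, although CDT1 turned to -0.20 under a correction for GC content and GINS1 to -0.16 against the DMSO libraries, and the mitotic members counted 10 higher and 4 lower. MCM7 read 357 and 349 CPM without IFN and 1107 and 1109 with IFN, MCM2 273 and 256 CPM without IFN and 661 and 642 with IFN and CDC6 82.6 and 92.6 CPM without IFN and 194 and 192 with IFN. CDC20 read 144 and 138 CPM without IFN and 376 and 352 with IFN and PLK1 126 and 119 CPM without IFN and 302 and 302 with IFN. TYMS was lower, at 101 and 104 CPM without IFN and 44.1 and 39.8 with IFN, but turned to 0.55 on the log2 scale against the DMSO libraries. CENPF was lower, at 321 and 339 CPM without IFN and 219.8 and 218 with IFN. The libraries of the groups did not overlap for any of the 42 genes, but the same count over all genes was not made. With the DMSO libraries as the comparison for IFN in place of the untreated controls, 17 members were higher and 20 lower. The share of all genes in that comparison is not given here, so neither count is a result about the members. Without sgNeg2 replicate 1 with IFN, sgNeg2 replicate 2 with IFN or sgNeg2 replicate 2 without IFN, the members called lower numbered 3, 2 of them mitotic.

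**Figure D4:**
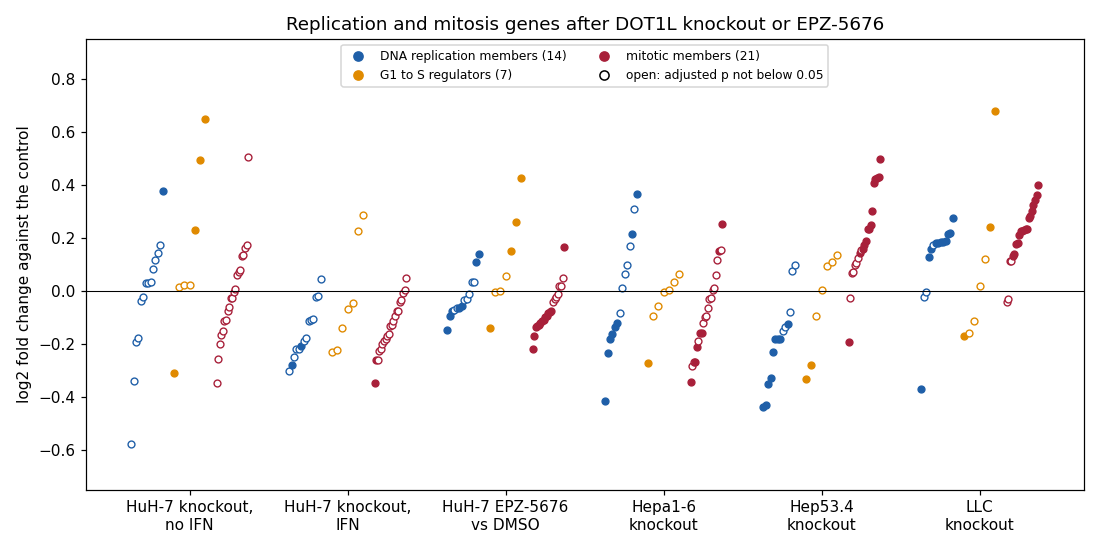
Log2 change of each of the 42 members in the 5 knockout settings and with EPZ-5676, arranged by class (replication, G1 to S, mitotic), with filled points for members called. Hep53.4 shows most replication genes below zero and most mitotic genes above it, with Cdt1, Rrm2, Kif11 and Mki67 among the exceptions. LLC shows most of both classes above zero, with Cdt1 below it.

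Set side by side over the 5 knockout settings, no member was called in the same direction in all of them. The numbers of settings given next count calls only. MCM6 fell in 3 (HuH-7 with IFN, Hepa1-6 and Hep53.4) and rose in 0. CDT1, E2F1 and CDK2 each fell in 2 and rose in 0. CCNE1, CCNE2, CCNA2, CCNB1, PLK1, KIF20A, TOP2A, CENPF, BIRC5, BUB1 and MAD2L1 each rose in 2 and fell in 0. CDC6 rose in 2 and fell in 2. GINS2 and E2F2 were called in 0. The calls behind this tally were not equally stable. With each library left out in turn, 0 of the 5 HuH-7 calls without IFN and 0 of the 4 with IFN held every time. In Hepa1-6 6 of 16 held, in Hep53.4 15 of 25 and in LLC 19 of 32. Among further genes, the CDK inhibitor gene CDKN1A, which encodes p21, rose in all 5 knockout settings and with EPZ-5676, by 0.50 and 1.05 in HuH-7 without and with IFN, 0.11 in Hepa1-6, 0.53 in Hep53.4, 0.77 in LLC and 0.59 with the inhibitor. The CDK4 and CDK6 inhibitor gene CDKN2C fell in the same settings, by 0.90, 0.81, 0.49, 0.22, 0.70 and 0.35 on the log2 scale. MYC, which drives S-phase entry, rose in HuH-7 without IFN (0.73) and with EPZ-5676 (0.49) and fell in Hep53.4 (-0.23) and LLC (-0.30). It did not pass in HuH-7 with IFN (-0.19) or in Hepa1-6 (0.04). MYC was the 1 further gene called in the interaction (-0.92), where IFN and library kind cannot be told apart.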

How the data were processed

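RNA sequencing of 36 libraries in 17 groups was analysed from raw read counts per gene, deposited by the authors as count tables. Per the submitters' processing notes, the tools named are Trim Galore, HISAT2 2.2.1, SAMtools 1.9 and DESeq2 1.36.0, with no roles given; the counter is not given in the sources used here. Counts were tested with edgeR 4.0.16 in R 4.3.3 (limma 3.58.1): low genes were filtered out (at least 10 counts, 15 in total, by filterByExpr), TMM set the scaling, and a robust quasi-likelihood fit gave p-values adjusted by Benjamini-Hochberg over all genes, called under 0.05. Scaling and fits were separate for the HuH-7 guide set (12 libraries), the inhibitor set (6) and each mouse line (6), and differences between mouse lines came from 1 fit of 18. CPM is TMM-scaled within these sets, so levels are not compared between them. The SE is the log2 change over the square root of its F statistic. Alternatives were DESeq2 1.42.0, another scaling, no filter, removal of histone and small RNA genes, each guide alone, a correction for GC content, a replicate block and leaving out each library. Any member could be named. Values in full were due for all called members where 6 or fewer were called, otherwise for the 6 with the smallest adjusted p and the 2 with the largest change, and up to 3 called genes per direction from each further list. Others are named for contrast. The members, lists and promoter letters were chosen with earlier results of these data known. The tests were checked on simulated data.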

Additional observations from a re-analysis of the deposited data

Results flagged for a closer look

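In LLC, Pcna in sg1 replicate 1, at 163 CPM, lay far from the other 3 knockout libraries for the spread of that group. This was 1 of 30 groups of 4 tested, and chance gives about 1 in 20. The effect of knockout on the members differed between mouse lines by the joint test. Between Hepa1-6 and Hep53.4, 19 members differed, among them Cdc20 (-0.67), Bub1b (-0.53), Aurka (-0.53), Ccnb2 (-0.44), Plk1 (-0.70), Kif20a (-0.70), Pcna (0.39) and Gins1 (0.71), as differences in log2 change. Between Hepa1-6 and LLC, 20 differed, among them Cdc20 (-0.53), Tpx2 (-0.42), Cdc6 (-0.63), Mcm5 (-0.35), Bub1b (-0.41), Mcm2 (-0.40) and Mki67 (-0.68). Between Hep53.4 and LLC, 20 differed, among them Mcm4 (-0.67), Ccnb2 (0.45), Rrm1 (-0.39), Mcm6 (-0.35), Pcna (-0.42), Mcm2 (-0.39) and Cdc6 (-0.65).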

How the results depend on the processing

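Counts of members called in the mouse lines, the line differences, EPZ-5676 and IFN against none stayed within 1.5 times under every alternative run other than leaving out a library. For the HuH-7 knockout without IFN (5 called) DESeq2 called 10, the GC correction 15, that correction with a replicate block 15, guides as separate groups 17, sg1 alone 23, sg2 alone 11 and only the groups compared 9. With IFN (4 called) no filter gave 2, removing histone and small RNA genes 1, the GC correction 14, that correction with a replicate block 12, guides as separate groups 21, sg1 alone 26, sg2 alone 18 and only the groups compared 0. For the interaction (0 called) DESeq2 gave 2, the GC correction 5 and the correction with a replicate block 5. A replicate block alone gave 4, 3 and 0 calls for these, 31 for IFN, 25 for EPZ-5676, 16 for Hepa1-6, 24 for Hep53.4, 32 for LLC and 18, 20 and 20 for the line differences. Each guide alone with IFN also called many more of all genes than the main fit, as given above. Shares of all genes under the other alternatives are not given here. These member counts are therefore no result about the members by themselves. Replicate numbers were not found to pair libraries (residual correlations -0.20 to 0.12).

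Leaving out each library gave 0 to 5 and 0 to 4 calls for the HuH-7 knockouts without and with IFN, 23 to 28 for IFN, 0 for the interaction, 23 to 25 for EPZ-5676, 9 to 19 for Hepa1-6, 17 to 28 for Hep53.4, 24 to 34 for LLC, and 14 to 19, 19 to 22 and 16 to 21 for the line differences. Shares of all genes in these fits are likewise not given, so the ranges are no result about the members. Directions turned for CDT1 with IFN under the GC correction (-0.20, also -0.20 with the block), for TOP2A with sg1 alone (0.17), and with DMSO libraries as the control for IFN for BIRC5 (-0.26), BUB1 (-0.32), CCNA2 (-0.29), CDK2 (-0.25), GINS1 (-0.16), MAD2L1 (-0.45), RRM1 (-0.17), RRM2 (-0.016) and TYMS (0.55). The cause was not tested. The GC correction was not run for mouse lines, whose reference was not used here. Counting error limits low genes such as Ccne2, which read 0.57 to 0.86 CPM in Hep53.4.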
